A study of Homo sapiens with 4 samples.

Results

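GSTP1, RASSF1, APC, CD44, PTGS2, CCND2, EDNRB and TIMP3 are 8 genes whose promoters are often found methylated in prostate cancer. They were taken by name, as 8 of the 20033 protein-coding genes that RefSeq places on the main chromosomes of GRCh38, and every ATAC-seq summit inside each gene or within 10 kb of it was examined. ATAC-seq marks open chromatin by letting a transposase insert adapters into accessible DNA, and a summit is the highest point of a called peak. Methylation itself was not measured in these files, so the data show only where chromatin at these genes was called open. There were 2 libraries of LNCaP, a human prostate cancer cell line labelled wild type, and 2 libraries of LNCaP cells labelled as resistance cells and as treated with enzalutamide, an androgen receptor antagonist. According to the methods, the resistant cells were selected in rising doses of the drug after adaptation to serum stripped of steroids, and the labels do not say which of the resistant sublines was used or whether replicates are separate cultures.

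CpG-rich promoters are normally free of methylation and open, and dense methylation of their CpG dinucleotides goes with closed chromatin and a silent gene. GSTP1, a glutathione transferase that detoxifies electrophiles, is the best known example in prostate cancer. RASSF1 and APC restrain growth, through RAS-associated and WNT signaling respectively, CD44 is a receptor for hyaluronan, PTGS2 is the inducible cyclooxygenase of prostaglandin synthesis, CCND2 is a D-type cyclin, EDNRB is a receptor for endothelins, and TIMP3 inhibits matrix metalloproteinases. The question was whether gene ends that were closed in LNCaP had opened in the resistant cells.

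LNCaP replicate 1 had 117245 summits and replicate 2 had 107344, whereas resistant replicate 1 had 70866 and replicate 2 had 45618. No read counts are given, so that depth is unknown. Each summit carries a peak-caller score, written as −log10 of a p or q, the sources not saying which. Scores were compared only as percentiles, meaning the percent of summits in the same library scoring no higher, and a place without a summit was given 0. Of 7 luminal prostate genes, 6 had a summit within 3 kb of their start in every library, the exception being KLK3. Of 4 genes of blood, endothelial and fibroblast cells, 3 also had one in every library and PTPRC, the leukocyte marker, had none. Those 3 lay between percentiles 44.6 and 85.8 in LNCaP and between 16.8 and 94.1 in the resistant libraries, and their part in the results was not tested. With 2 libraries against 2, an exact permutation test cannot give a two-sided p below 0.333, so differences are given beside the spread between replicates, with no test.

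The promoter sequences of the starts described below are shown with every CpG in capitals, since these are the bases that can be methylated. Each is the 250 bases before a RefSeq start on GRCh38.p14, written 5′ to 3′ along the gene. Of the 8 genes, 7 had an entry, and CCND2 had none. The first set holds the promoters with a summit nearby in the resistant libraries only, or with a higher percentile there. CD44 is shown at chr11:35138921-35139170 on the plus strand and PTGS2 at chr1:186680424-186680673 on the minus strand. EDNRB has 2 listed starts on the minus strand, an upstream start shown at chr13:77919683-77919932 and a downstream start shown at chr13:77918832-77919081. No summit in this first set lies within the bases printed. Those near the starts of CD44 and PTGS2 lie inside the gene, and those of EDNRB lie between its printed stretches. The CpG counts and motifs given below for these genes thus describe bases beside the summits.
CD44: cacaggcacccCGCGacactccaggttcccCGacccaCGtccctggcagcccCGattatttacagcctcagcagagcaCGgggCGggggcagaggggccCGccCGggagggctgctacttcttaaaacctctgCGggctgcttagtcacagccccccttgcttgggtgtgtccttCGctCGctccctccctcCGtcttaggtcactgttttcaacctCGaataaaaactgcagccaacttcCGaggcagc
PTGS2: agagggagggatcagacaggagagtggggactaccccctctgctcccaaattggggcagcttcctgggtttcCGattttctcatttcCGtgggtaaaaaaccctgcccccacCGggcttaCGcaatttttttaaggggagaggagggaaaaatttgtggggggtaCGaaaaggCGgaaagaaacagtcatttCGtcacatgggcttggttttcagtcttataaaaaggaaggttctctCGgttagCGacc
EDNRB upstream: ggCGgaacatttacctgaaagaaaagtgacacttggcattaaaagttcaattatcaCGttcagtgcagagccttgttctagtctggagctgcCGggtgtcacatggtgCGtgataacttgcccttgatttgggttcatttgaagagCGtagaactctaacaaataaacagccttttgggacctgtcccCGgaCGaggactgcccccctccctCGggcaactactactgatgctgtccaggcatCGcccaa
EDNRB downstream: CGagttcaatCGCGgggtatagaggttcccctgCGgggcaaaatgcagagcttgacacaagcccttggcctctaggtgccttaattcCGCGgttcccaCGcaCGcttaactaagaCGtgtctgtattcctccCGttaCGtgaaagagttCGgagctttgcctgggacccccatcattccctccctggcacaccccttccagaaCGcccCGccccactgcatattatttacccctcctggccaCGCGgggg

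The second set holds promoters with no summit, or a single weak one, within 1 kb, together with the open upstream promoter of APC for contrast. GSTP1 is shown at chr11:67583562-67583811, TIMP3 at chr22:32801455-32801704, and APC at chr5:112737635-112737884 for its downstream start and chr5:112707248-112707497 for its upstream start, all on the plus strand. The downstream APC promoter is the one whose methylation is usually studied in cancer.
GSTP1: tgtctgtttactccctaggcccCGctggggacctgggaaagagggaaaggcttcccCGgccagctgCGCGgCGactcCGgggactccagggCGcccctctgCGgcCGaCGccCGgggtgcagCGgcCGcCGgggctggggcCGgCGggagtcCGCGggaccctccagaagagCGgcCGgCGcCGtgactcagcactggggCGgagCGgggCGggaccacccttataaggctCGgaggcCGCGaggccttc
TIMP3: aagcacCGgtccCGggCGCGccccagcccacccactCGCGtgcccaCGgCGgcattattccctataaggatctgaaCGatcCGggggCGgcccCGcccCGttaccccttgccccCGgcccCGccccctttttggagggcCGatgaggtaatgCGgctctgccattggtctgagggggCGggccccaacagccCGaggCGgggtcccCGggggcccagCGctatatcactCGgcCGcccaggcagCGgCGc
APC downstream: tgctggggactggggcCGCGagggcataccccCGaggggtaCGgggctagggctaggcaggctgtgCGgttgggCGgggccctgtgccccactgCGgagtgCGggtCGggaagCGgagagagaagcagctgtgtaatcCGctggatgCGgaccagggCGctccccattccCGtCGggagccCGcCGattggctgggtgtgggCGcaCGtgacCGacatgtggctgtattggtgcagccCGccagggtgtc
APC upstream: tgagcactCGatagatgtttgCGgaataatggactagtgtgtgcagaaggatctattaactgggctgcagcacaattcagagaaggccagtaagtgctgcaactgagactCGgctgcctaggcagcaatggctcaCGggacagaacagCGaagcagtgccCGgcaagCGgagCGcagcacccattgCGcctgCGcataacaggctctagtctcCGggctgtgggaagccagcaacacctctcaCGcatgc

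GSTP1 had 28 CpGs in its 250 bases and TIMP3 had 26, against a median of 16 over 22182 promoters of protein-coding genes. The downstream promoter of APC had 21 and its upstream promoter had 12. RASSF1 had 25 at its listed start, which was open in every library. CD44 had 15, the downstream and upstream starts of EDNRB had 16 and 9, and PTGS2 had 9. Motifs were searched on both strands. The GC box GGGCGG was present in 53.7% of all promoters. It was found 5 times in TIMP3, 3 times in RASSF1, and 2 times each in GSTP1 and CD44. The downstream promoters of APC and EDNRB had 1 each, and their upstream promoters and that of PTGS2 had none. The AP-1 motif TGANTCA, present in 5.35% of all promoters, was found in GSTP1 alone among the 9 listed promoters of these genes, starting 66 bases before its start. The hexamer AGAACA, which is one arm of an androgen response element and is present in 9.85% of all promoters, was found at the upstream starts of APC and EDNRB. The E box CACGTG, present in 7.38%, was found at the downstream start of APC. A motif match describes the letters and does not show binding.

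The 8 genes had 12 start sites, 9 listed in the promoter table and 3 gene ends not listed there, namely the 5′ ends of RASSF1 and EDNRB and the lower-coordinate end of CCND2. CCND2 has no strand in the tables, but its antisense RNA CCND2-AS1 lies on the minus strand across that end. Neither LNCaP library had a summit within 1 kb of 7 of the 12. Both resistant libraries had one at 3 of these 7, the start of CD44 and both listed starts of EDNRB, which share a single site. The measure within 1 kb was added after seeing the data. The planned count by gene end within 3 kb, given below, found 0 of 6 closed ends opened. Of the 9 listed starts alone, 5 were closed in LNCaP and 3 of those had opened, at 2 distinct sites. No start site with a summit in both LNCaP libraries was without one in both resistant libraries. Of all 22182 listed starts, 33.2% were without a summit in both LNCaP libraries, and 9.49% of those had one in both resistant libraries. Among starts with CpG-rich promoters, with at least 55% GC and an observed over expected CpG ratio of at least 0.65, 11.7% were closed in LNCaP and 27.6% of those had opened. The downstream start of EDNRB belongs to that class, and CD44 falls just short of it, with a ratio of 0.637. The starts of GSTP1 and the downstream start of APC, with ratios of 0.806 and 0.722, also belong to it. Both were closed in LNCaP and had not opened.

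**Figure D1:**
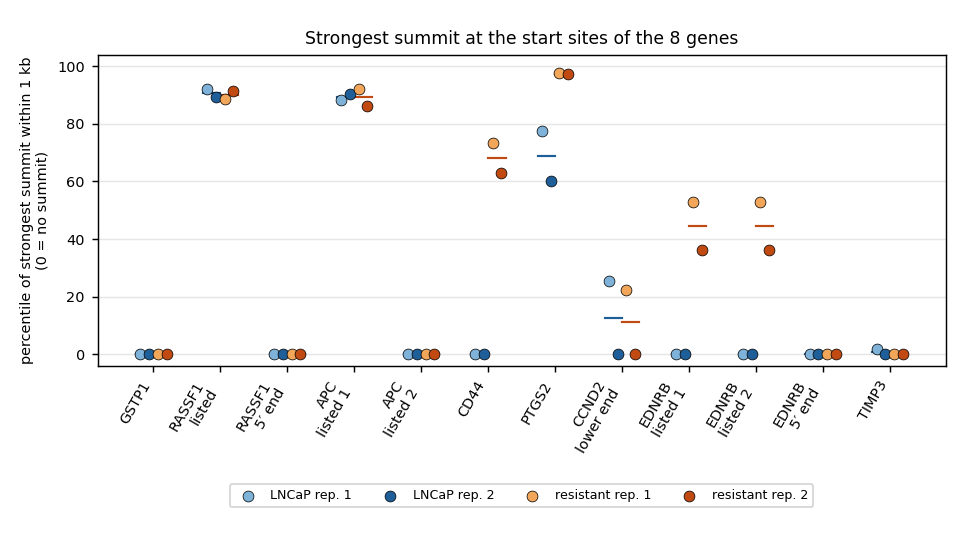
Percentile of the strongest summit within 1 kb of each of the 12 start sites (vertical axis, 0 where there is no summit), with a point for each library and bars for the group means. For EDNRB and APC, listed 1 is the start with the lower coordinate. CD44 and both listed starts of EDNRB have summits only in the resistant libraries, PTGS2 reaches 97.5 and 97.3 there, and GSTP1, the downstream start of APC and the 5′ ends of RASSF1 and EDNRB are at 0 in all 4 libraries.

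CD44 lies at chr11:35139171-35232402 on the plus strand. The resistant libraries had a summit 549 and 537 bp inside the gene from its start, with scores of 35.3 and 16.4, at percentiles 73.3 and 63.0. Neither LNCaP library had a summit in that site, which covers chr11:35139458-35139970. The resistant mean was 68.1 ± 7.28 (SD, n = 2), and LNCaP, with no summit, was set to 0, so the difference cannot be weighed against a spread in LNCaP. Further into the gene the pattern was the opposite. Neither resistant library had any other summit in the gene or within 10 kb of it, whereas the LNCaP libraries shared 4 LNCaP-only sites there. The strongest of these, between 18827 and 19670 bp from the start, was at percentiles 89.0 and 91.4 in LNCaP replicates 1 and 2. It kept its summit in both LNCaP libraries when each list was cut to the 45618 summits with the highest scores, the number in the shortest list. The next, between 43650 and 43684 bp from the start, was at 65.6 and 39.7, and one between 2584 and 2616 bp was at 51.1 and 33.1. The weakest, between 28398 and 28471 bp, was at 13.3 and 20.4. LNCaP replicate 2 alone also had a weak summit 1249 bp from the start, at percentile 3.25. The summits called at CD44 thus lay within 549 bp of its start in resistant cells and further into the gene in LNCaP. They had no site in common with summits widened by 250 bp, but widening by 500 bp joined the resistant site to the weak LNCaP summit.

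EDNRB lies at chr13:77895487-77975527 on the minus strand. Its outermost 5′ end had no summit within 3 kb in any library, but the site chr13:77918904-77919456 lies between its listed starts. The resistant summits there were 528 and 476 bp downstream of the upstream start and 323 and 375 bp before the downstream start. They scored 17.1 and 7.16, at percentiles 53.0 and 36.2, and the nearest LNCaP summits were more than 20 kb away, at 22502 and 22480 bp from the upstream start. The resistant mean was 44.6 ± 11.9 (SD, n = 2), and LNCaP was again set to 0. Resistant replicate 2, whose score is below 10, lost this summit when a score of at least 10 was required. Near the 3′ end the LNCaP libraries had 2 sites that neither resistant library had, one at percentiles 18.4 and 58.6, between 1693 and 1715 bp inside the gene, and one at 33.2 and 13.6, between 2138 and 2166 bp beyond it.

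PTGS2 lies at chr1:186671791-186680423 on the minus strand. A summit lay between 49 and 88 bp inside the gene from its start in all 4 libraries, at a site within 1 kb of an end of the noncoding RNA gene PACERR. LNCaP scores were 25.3 and 13.2, which are percentiles 77.6 and 60.1. Resistant scores were 105 and 65.5, which are percentiles 97.5 and 97.3. The groups did not overlap, and the resistant mean was higher by 28.6 points, more than the pooled SD of 8.72. When percentiles were taken among the sites that all 4 libraries share, which removes the weak summits of the longer LNCaP lists, the values were 50.1 and 32.1 against 94.8 and 96.3. Of the 12544 listed starts with a summit in all 4 libraries, 28.1% were higher and 21.1% lower in both resistant libraries by the first measure. A second PTGS2 site, between 3893 and 3948 bp inside the gene, was at 41.5 and 27.1 in LNCaP and had no resistant summit. The genes whose strongest start summits were nearest to those of PTGS2, by Euclidean distance over the 4 percentiles, were POGLUT3 at 6.47 points, NKX6-1 at 8.43 points and EBF1 at 8.58 points.

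GSTP1 lies at chr11:67583812-67586653 on the plus strand. No library had a summit inside the gene, within 1 kb of its start, or within 3 kb of its 3′ end. The nearest summit lay between 1100 and 1182 bp before the start in all 4 libraries, with LNCaP percentiles of 58.7 and 48.1 and resistant percentiles of 70.0 and 51.1, so the groups overlapped. The difference of 7.19 points was within the pooled SD of 10.8. Among shared sites the same summits were at 25.6 and 21.4 against 44.9 and 40.5, and the groups separated, so the call depends on how percentiles are taken. With equal numbers of summits neither LNCaP library kept this summit and both resistant libraries did, a change of 52.3 points. A second shared site, between 4587 and 4602 bp before the start, was lower in resistant cells on both scales, at 30.7 and 19.9 against 63.2 and 53.2 among all summits and at 8.48 and 11.9 against 30.2 and 25.7 among shared sites. The promoter printed above, with its 28 CpGs, was thus not called open in either cell type.

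RASSF1 and APC each had a start that was open in every library and a start that was closed in every library. The isoform RASSF1A, the one known to be silenced by methylation, begins at the upstream end of the gene, and a shorter isoform begins at the start listed in the table. RASSF1 lies at chr3:50329788-50340836 on the minus strand. At its listed start the strongest summits had percentiles of 92.0 and 89.4 in LNCaP against 88.6 and 91.3 in resistant cells, and at the upstream end the nearest summit in each library was between 3347 and 3433 bp away. APC lies at chr5:112707498-112846239 on the plus strand. Its upstream start had a summit within 52 bp, with percentiles of 88.3 and 90.5 in LNCaP against 92.2 and 86.2 in resistant cells. Its downstream start had none within 24 kb in any library, the nearest being 24449 and 24467 bp away in LNCaP and 30342 and 30335 bp away in the resistant libraries. The differences at the open starts, of -0.71 points for RASSF1 and -0.21 for APC, were within the pooled SDs of 1.84 and 3.20. Among shared sites the upstream start of APC was at 70.3 and 77.3 against 83.9 and 81.2, and the groups separated, while those of RASSF1 still overlapped.

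Around RASSF1 the sites differed more than at its start. A site between 6296 and 6302 bp inside the gene from the upstream end was at 68.9 and 72.6 in LNCaP and absent from the resistant libraries, and it kept its LNCaP summits with equal numbers of summits. Upstream of the gene, a shared site at the edge of the window, near the ends of NPRL2 and CYB561D2, was at 94.2 or above in all 4 libraries, counting summits just past the window. Another near NPRL2, between 6685 and 6694 bp upstream, was at 45.5 and 44.3 in LNCaP and absent from resistant cells. A site within 1 kb of an end of ZMYND10 had no summit in LNCaP replicate 2, was at 13.3 in LNCaP replicate 1, and reached 69.9 and 61.6 in the resistant libraries. The site between 19336 and 19372 bp from the upstream end, beyond TUSC2, was higher in resistant cells, at 84.5 and 86.0 against 71.3 and 65.1. A shared site near TUSC2, between 1045 and 1485 bp beyond the 3′ end of RASSF1, was at 92.0 and 91.5 against 90.7 and 88.9. In APC, 3 LNCaP-only sites inside the gene were weak, with percentiles between 7.62 and 28.6. A shared site between 2169 and 2201 bp beyond its 3′ end was lower in resistant cells, at 71.9 and 58.9 against 79.5 and 88.3, a difference of -18.5 points against a pooled SD of 7.86.

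CCND2 and TIMP3 had little open chromatin at their starts in either cell type. CCND2 lies at chr12:4273762-4305353. Within 1 kb of its lower-coordinate end, replicate 1 of each cell type had a summit, at percentiles 25.3 in LNCaP and 22.2 in resistant cells, and replicate 2 of neither had one. The strongest CCND2 site lay between 2632 and 2688 bp beyond the higher-coordinate end. Its LNCaP scores were 63.5 and 54.1, which are percentiles 98.2 and 98.0. The resistant scores were 60.8 and 26.8, which are percentiles 86.9 and 77.3. The change was -16.0 points against a pooled SD of 4.80, and among shared sites it was -22.7 points. A shared site between 3315 and 3351 bp from the lower end, near CCND2-AS1, was at 59.1 and 47.9 in LNCaP and in resistant cells at 49.99 and 18.7, and the groups overlapped. A site inside the gene, between 12724 and 12737 bp from the lower end, was at 29.1 and 27.1 in LNCaP only.

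TIMP3 lies at chr22:32801705-32863041 on the plus strand, inside SYN3 in the table. At its start the only summit was in LNCaP replicate 1, 413 bp inside the gene, at percentile 1.89. Resistant replicate 2, the shortest list, had no summit in the gene or within 10 kb of it. A site between 4520 and 4551 bp before the start was at 73.9 and 63.1 in LNCaP, at 60.5 in resistant replicate 1 and absent from resistant replicate 2. A site between 21531 and 21553 bp inside the gene was at 56.1 and 61.5 in LNCaP and 41.9 in resistant replicate 1. One LNCaP-only site at the edge of the window, more than 9 kb before the start, had its strongest summits, at 72.3 and 84.5, just outside the window. Another, between 50835 and 50909 bp inside the gene, was at 4.70 and 7.62.

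**Figure D2:**
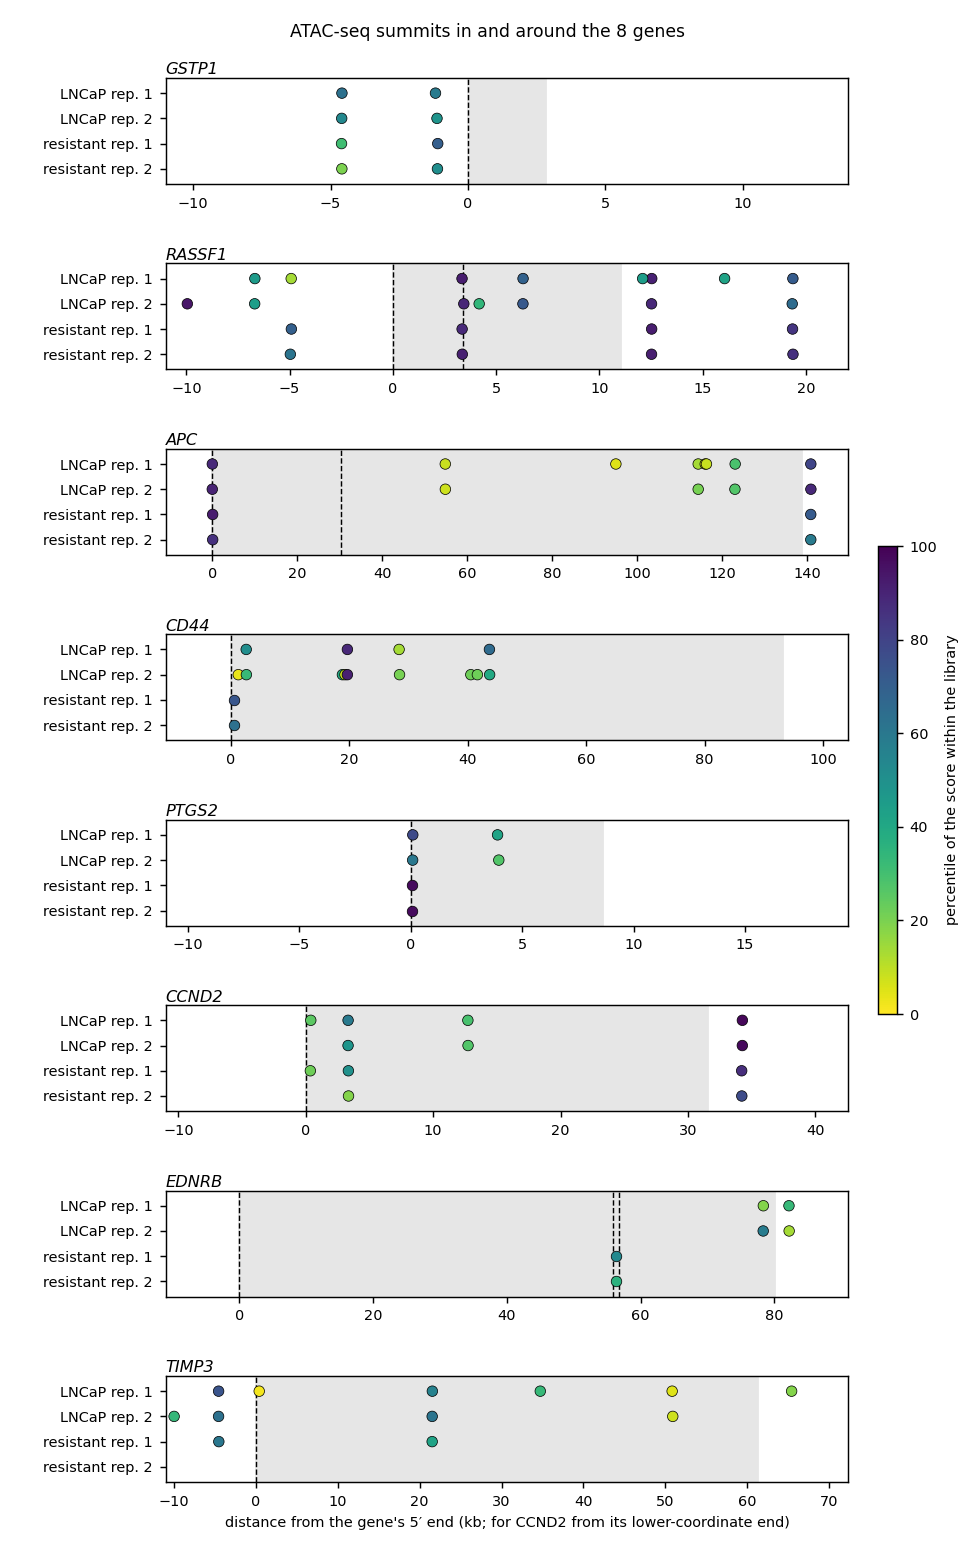
Summits of each library along the 8 genes, by distance from the gene's 5′ end in kb, each panel with its own scale. Points are summits coloured by percentile within the library, grey marks the gene, and dashed lines mark its start sites. CD44 and EDNRB have summits at a start only in the resistant libraries, and away from their starts the interiors of CD44 and APC have summits in LNCaP only.

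Counted by gene end rather than by start site, fewer places opened. Of the 16 ends, 6 had no summit within 3 kb in either LNCaP library, and 0 of these 6 had one in both resistant libraries. They were the 5′ ends of RASSF1 and EDNRB and the 3′ ends of CD44, GSTP1, PTGS2 and TIMP3, and no library had a summit at any of them. Over all protein-coding genes, 42.9% of ends were closed in LNCaP by this rule, and 4.61% of those had opened. Of the 8 ends of these genes with a summit in both LNCaP libraries, 1 was lost, the 3′ end of EDNRB. Over all protein-coding genes, 11.7% of such ends were lost. The CD44 start did not count as closed within 3 kb because of the LNCaP-only site about 2.6 kb inside the gene. Within 1 kb, 12 ends were closed in LNCaP and 1 had opened, that of CD44, while the EDNRB site lies too far inside the gene to count for any end.

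For the strongest summit within 3 kb of the start, both resistant libraries were above both LNCaP libraries at 2 of the 8 genes, CD44 and PTGS2, and below them at 1, CCND2, whose value comes from its higher-coordinate end because its strand is not in the tables and either end was used. With the lower end of CCND2 as its start the change was -1.55 points, the groups overlapped and 0 genes were lower. For CD44 this compares the site near the start in resistant cells with the one 2.6 kb inside the gene in LNCaP. Among the 15842 protein-coding genes with a strand, 21.3% were higher and 19.7% lower. That split moved to 38.0% and 11.5% with percentiles among shared sites, where 4 of the 8 genes were higher, and to 48.3% and 4.93% with equal numbers of summits, where 4 were also higher. The median change was 0 percentile points both for the 8 genes and for all genes. For the 8 genes this is the value of RASSF1 and EDNRB, which had no summit within 3 kb of the start in any library. Of the 15842 genes, 3711 had none in LNCaP and 361 of these had opened. A median of 0 therefore does not show that starts with a summit were unchanged.

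**Figure D3:**
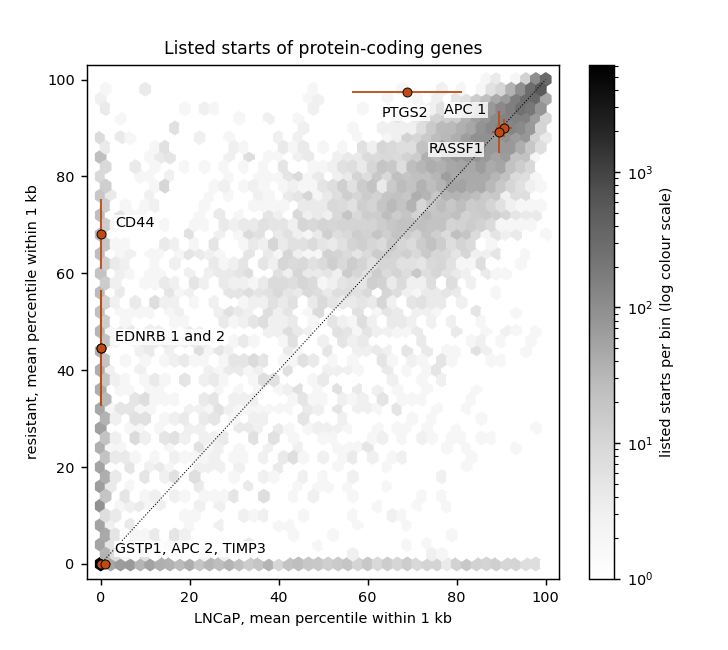
Mean percentile of the strongest summit within 1 kb of each listed start in LNCaP (horizontal) and resistant cells (vertical), for 22182 starts of protein-coding genes (grey, log colour scale) and the 9 listed starts of these genes (points, with bars of 1 SD over 2 libraries). CD44 and EDNRB lie on the left edge at 68.1 and 44.6, PTGS2 lies above the diagonal, and RASSF1 and the upstream start of APC lie on it.

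Over the whole windows, summits widened by 250 bp and merged across libraries gave 42 sites, from 36 and 34 summits in LNCaP and 16 and 13 in the resistant libraries. Both LNCaP libraries and neither resistant library had a summit in 15 sites, or 35.7%, against 27.5% of the 150917 sites of the genome. Only 2 sites, or 4.76%, were resistant-only, those at the starts of CD44 and EDNRB, against 3.84% of the genome, so this share was near the background. With equal numbers of summits the balance turned, to 2 LNCaP-only and 5 resistant-only of 20 sites, or 10.0% and 25.0%, against 17.1% and 14.9% of the genome. The 5 were the sites at the starts of CD44 and EDNRB, the GSTP1 site nearest its start, the CCND2 site near CCND2-AS1 and the RASSF1 site near ZMYND10. All 4 libraries shared 11 sites, or 26.2%, against 21.1%, and 14, or 33.3%, were mixed, against 47.6%. Of the 15 LNCaP-only sites, 7 had a mean percentile below 30 and 4 had one of at least 50, and 3 kept a summit in both LNCaP libraries with equal numbers. The resistant lists are shorter, and the part this plays in the LNCaP-only sites was not tested. Of the 11 shared sites, 3 were higher and 3 lower in both resistant libraries, where the genome gave 17.7% and 41.8%. With percentiles taken among shared sites the counts were 6 and 4, where the genome gave 33.6% and 31.5%.

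**Figure D4:**
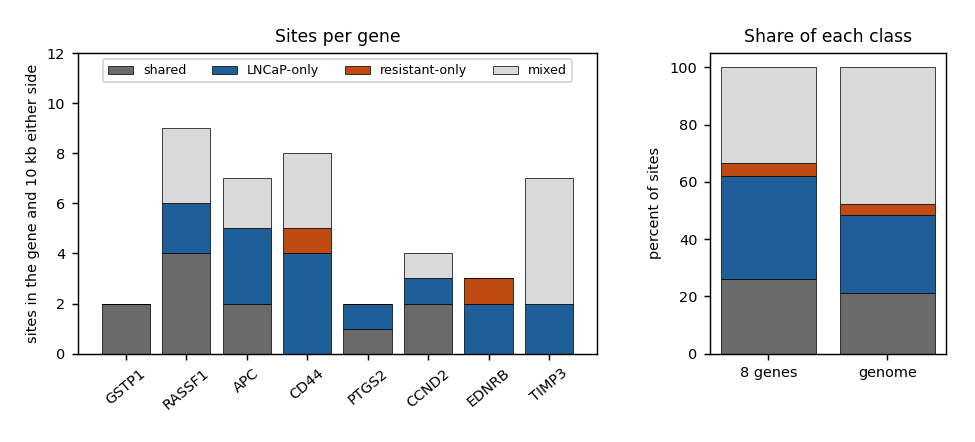
Left, number of sites in each gene and 10 kb on either side, by the libraries that have a summit in them. Right, percent of sites in each class for the 8 genes together and for all sites of the genome, with resistant-only sites at 4.76% and 3.84%.

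A second list of 16 genes that are also known to be methylated in prostate cancer was treated in the same way. Within 3 kb of the start, 2 were higher in both resistant libraries, 4 were lower and 10 did not separate. RPRM, which encodes a mediator of cell cycle arrest, was at 76.5 and 56.0 in resistant cells against 33.2 and 43.4. HAPLN3, a hyaluronan link protein, was at 78.7 and 67.1 in resistant cells against 58.6 and 56.9. Within 1 kb of the HAPLN3 start, only resistant replicate 2 had a summit, the one at 67.1. The other values come from summits farther away, so different places are compared. CAV1, which encodes caveolin, was at 89.7 and 76.3 in resistant cells against 93.9 and 91.6. There was no summit in LNCaP near the starts of 4 genes, RARRES1, ABCB1, AOX1 and RUNX3, and 0 of these had opened. In the promoter table, 12 of the 16 genes had 20 listed starts, of which 10 were closed in LNCaP within 1 kb and 0 had opened. Of the 9 with a summit in all 4 libraries, 4 were higher and 2 lower in both resistant libraries, where all such starts gave 28.1% and 21.1%. The higher ones were the start of RPRM and 3 that are named after their values were seen. A downstream start of ABCB1, the drug efflux pump, went from 53.6 and 47.8 in LNCaP to 93.3 and 81.5. The outermost starts of CAV1, which share the same summits and so are not separate sites, went from 2.01 and 8.88 to 33.7 and 49.7. The lower ones were the downstream start of CAV1 and the outermost start of RARB, a retinoic acid receptor, which went from 96.1 and 89.4 to 87.8 and 79.6.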

How the data were processed

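The authors deposited 1 list of ATAC-seq peak summits per library, with 1 position per summit and a score on a −log10 scale that stands for a p-value or a q-value. Peaks were thus called per library. The submitters' processing notes name build hg38 and the tools Bowtie2 2.2.5, SAMtools 1.6, MACS2 2.2.6, deepTools 3.5.2, HOMER 4.11 and edgeR 3.22.5, without their roles, and thresholds are not given in the sources used here. The lists hold no counts, so neither depth nor counting error can be given.

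Genes, starts and promoter sequences came from RefSeq tables of GRCh38.p14. Strand came from the promoter table, which covered 15842 of the protein-coding genes. For the others, CCND2 included, either gene end was used. Windows reaching 250 bp to each side of a summit were merged into sites, which belonged to a gene when a summit lay in it or within 10 kb. Percentiles used all summits of a library. All 8 genes are named, with sites at their ends, their strongest sites and their LNCaP-only or resistant-only sites. From the second list of 16 genes, those opened or lost and the 2 largest separated changes in each direction are named, except 1 gene that is not reported here, and the 3 genes nearest in pattern are given for the gene with the largest change. The members and lists were chosen with earlier results of these data known. The measure within 1 kb of listed starts was added after seeing the data.

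The labels' batch field gives the replicate numbers, repeat 1 and repeat 2, in both cell types, so values within each number were also computed, and no other batch is labelled. The computation was tested on simulated lists. Python 3.11.15, numpy 2.4.6, pandas 2.3.3 and matplotlib 3.10.9 were used.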

Additional observations from a re-analysis of the deposited data

How the results depend on the processing

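The results at CD44, EDNRB and PTGS2 kept their direction under most settings, but the opening at CD44 depended on the distance used. The 3 start sites that opened within 1 kb were 3 without each library in turn and within each replicate pair. They were 1 within 500 bp (EDNRB alone) or with a score of at least 10 (CD44 alone), and 2 within 2000 bp (EDNRB alone). CD44 thus opened within 1 kb but not within 500 or 2000 bp. Its resistant summits lie 549 and 537 bp from the start, and LNCaP replicate 2 has a weak summit at 1249 bp. Start sites lost were 0, and 1 with a summit in at least 1 library. The balance of LNCaP-only and resistant-only sites turned with equal numbers of summits. Changes within the replicate spread also switched sign, that of APC from -0.21 to 13.25 points with equal numbers, 8.81 among shared sites, 1.01 with a score of at least 10, 3.89 within replicate 1, 0.88 without LNCaP replicate 2 and 2.81 without resistant replicate 2, and that of GSTP1 from 7.19 to -2.25 without resistant replicate 1. The unknown depth limits weak summits and absences in the shorter resistant lists.

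LNCaP-only sites numbered 3 with a score of at least 10, 2 with equal numbers of summits and 25 with a summit in at least 1 library. Resistant-only sites numbered 1 with summits widened by 500 bp, which joins the CD44 site to a weak LNCaP summit, and 5 with equal numbers. Gene ends closed in LNCaP numbered 12 within 1 kb and 10 with equal numbers, of which 1 and 2 opened. Ends lost numbered 0 within 1 kb, with a score of at least 10 or with equal numbers, and 2 with a summit in at least 1 library. Genes higher at the start numbered 4 with equal numbers or among shared sites. Genes lower numbered 0 within 1 kb or with the lower end of CCND2 as its start. The median change was 6.63 points with equal numbers, where all genes moved by 5.99, and 4.41 among shared sites, where all genes moved by 2.10.

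Without each library in turn, LNCaP-only sites ranged from 15 to 20, resistant-only from 2 to 3 and shared from 11 to 13. Closed ends ranged from 6 to 8, opened from 0 to 0 and lost from 1 to 2, the 2 without LNCaP replicate 2. Closed start sites ranged from 7 to 9 and lost ones from 0 to 1, the 1 without LNCaP replicate 2. Genes higher ranged from 2 to 4, the 4 without resistant replicate 2, and genes lower from 1 to 2, the 2 without LNCaP replicate 2 or resistant replicate 1.

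As a replicate block, differences within replicate 1 gave 4 genes higher and 2 lower, 2 ends lost and 1 start site lost, and those within replicate 2 gave 3 higher and 2 lower. With a single library on each side these are signs of single differences. For the strongest summit within 3 kb of the start, CD44 changed by 22.2 and 29.9 points and PTGS2 by 19.9 and 37.2 points within replicates 1 and 2. The CD44 values compare the resistant site near the start with a different LNCaP site further inside the gene, whereas those of PTGS2 compare a shared site.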
